A study of Mus musculus with 6 samples.

Results

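Ifng, Tnf, Tbx21 and Eomes are 4 of the 14597 genes in a count table of single T cells from mouse melanomas, and they were taken by name as the core genes of type 1 effector function. The cells were TCRβ+ T cells sorted from B16-F10 tumors, a mouse melanoma line grown under the skin of Foxp3-EGFP-DTR mice, whose Foxp3-expressing cells bear a receptor for diphtheria toxin. Per the labels, 3 samples came from animals given PBS and 3 from animals given diphtheria toxin (DTx), which removes Foxp3+ Treg cells, and all 6 samples shared the Foxp3-EGFP-DTR genotype. The table held 12818 cells and 21816565 unique molecular identifiers (UMIs, 1 per captured transcript) in 6 libraries, whose numbers 1 to 6 could not be linked to PBS or DTx. No comparison between the treatments was therefore made, the libraries are described as 6 single values, and no p-value is given.

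Interferon-γ and TNF are secreted by activated T cells and act on tumor cells, endothelium and myeloid cells, and interferon-γ in particular raises antigen presentation. T-bet, the product of Tbx21, is the T-box transcription factor that defines Th1 cells and drives Ifng transcription. Eomesodermin, the product of Eomes, is its close relative, best known in CD8+ T cells and NK cells, where it is linked to memory, to cytotoxic genes and to late exhaustion.

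Ifng (ENSMUSG00000055170.4) lies on chromosome 10 at 118441046 to 118445892 on the plus strand, and Tnf (ENSMUSG00000024401.14) on chromosome 17 at 35199381 to 35202007 on the minus strand. Tbx21 (ENSMUSG00000001444.2) lies on chromosome 11 at 97098071 to 97115331 on the minus strand, and Eomes (ENSMUSG00000032446.14) on chromosome 9 at 118478212 to 118486132 on the plus strand. All 4 are protein-coding genes in the GENCODE annotation of GRCm38. The 250 bases before each RefSeq start site (GRCm38.p6) are shown because the cytokine and factor genes differed there in matches to the exact letters TATAAA. Capitals mark the TATA box letters TATAAA on the gene's own strand. They also mark the core letters GGAAA bound by NFAT factors on either strand (TTTCC when read on the other strand). The windows are chr10:118440796-118441045 for Ifng, chr17:35202008-35202257 for Tnf, chr11:97115332-97115581 for Tbx21 and chr9:118477939-118478188 for Eomes, each written 5′ to 3′ along its gene.
Ifng: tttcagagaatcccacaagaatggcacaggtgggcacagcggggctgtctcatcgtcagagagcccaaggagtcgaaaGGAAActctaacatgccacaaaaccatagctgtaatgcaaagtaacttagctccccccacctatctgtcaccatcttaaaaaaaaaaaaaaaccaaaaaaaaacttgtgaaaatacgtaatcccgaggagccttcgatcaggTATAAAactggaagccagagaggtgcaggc
Tnf: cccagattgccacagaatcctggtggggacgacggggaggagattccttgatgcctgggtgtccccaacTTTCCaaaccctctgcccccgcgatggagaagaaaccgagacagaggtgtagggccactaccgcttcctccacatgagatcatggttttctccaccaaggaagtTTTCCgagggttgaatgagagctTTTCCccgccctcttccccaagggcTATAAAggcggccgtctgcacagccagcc
Tbx21: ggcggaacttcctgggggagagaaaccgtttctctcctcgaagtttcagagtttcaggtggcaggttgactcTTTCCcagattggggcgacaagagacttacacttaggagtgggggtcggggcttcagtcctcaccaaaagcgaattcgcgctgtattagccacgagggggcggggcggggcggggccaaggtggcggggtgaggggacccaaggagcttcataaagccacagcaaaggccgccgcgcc
Eomes: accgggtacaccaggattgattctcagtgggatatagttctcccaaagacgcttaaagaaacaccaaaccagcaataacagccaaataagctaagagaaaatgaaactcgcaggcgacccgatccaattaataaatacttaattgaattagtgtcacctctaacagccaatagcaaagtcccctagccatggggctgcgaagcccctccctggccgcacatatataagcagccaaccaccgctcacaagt
Both cytokine promoters held 1 match to TATAAA and neither factor promoter did, and 7.59% of all 32851 promoter windows of this length held it. Only these exact letters were searched. The Eomes window holds TATATAAG near its end, so a TATA box of other letters is not excluded there. Tnf held 3 matches to GGAAA, a number reached by 6.39% of windows, while Ifng and Tbx21 held 1 each and Eomes none; 55.6% of windows held at least 1. GGTGTGA, a T-box half-site, and TGANTCA, the AP-1 site, were searched on both strands and were in none of the 4 windows, against 3.33% and 6.75% of all windows. These are matches of letters and not measured binding sites.

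Lineages were assigned by UMI presence. CD4+ Tconv cells had a Cd4 UMI and none of Cd8a, Cd8b1 or Foxp3 (1205 cells), CD8+ T cells had a Cd8a or Cd8b1 UMI and none of Cd4 or Foxp3 (4497 cells), and Foxp3+ cells had a Foxp3 UMI and none of Cd8a or Cd8b1 (97 cells, all but 1 of them in libraries 1 to 3). A further 168 cells held both Cd4 and Cd8 UMIs and were kept out of these gates, as were 6838 cells with no gating gene. The T cell markers Cd3e, Cd3d, Cd3g and Trac summed to 30.3 to 38.6 UMIs per 10,000 in every library of the CD4+ and CD8+ gates, whereas the NK cell markers Ncr1, Klrb1c and Klra8 gave 3 UMIs in all CD4+ Tconv cells, with Ncr1 and Klra8 at 0, and 86 UMIs in all CD8+ T cells. The median depth ran from 610 UMIs per cell in library 3 to 2499.5 in library 4. Library 2 stood apart, with 998 of the 1572 cells that carried naive markers (at least 2 of 5 naive marker genes, with Ccr7, Lef1, Dapl1 and Igfbp4 among them, without Ccl5, Nkg7, Pdcd1 or Mki67). Between libraries 76 barcodes were shared, by 152 cells or 1.19% of all.

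Ifng was nearly absent in library 2 and common in the others. In CD4+ Tconv cells it stood at 3.04, 0.225, 4.23, 5.33, 5.15 and 5.19 UMIs per 10,000 in libraries 1 to 6. Among CD8+ T cells it was at 2.56, 0.404, 3.09, 6.5, 6.87 and 5.37. Library 2 was lowest in both lineages, and libraries 4, 5 and 6 were highest. Among CD4+ Tconv cells only the step from library 2 to library 1 separated neighbouring exact 95% Poisson intervals, so the levels in libraries 3 to 6 could not be ordered. Among CD8+ T cells library 6 lay above library 3 and library 4 above library 6, while libraries 1 and 3 overlapped, as did 4 and 5. Without naive-marked cells Ifng in library 2 was 0.449 among CD4+ Tconv cells and 0.547 among CD8+ T cells, still below every other library. All intervals here and below cover counting error only, since UMIs of the same cell are not independent and animals were not separated.

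Tnf followed another order. In CD4+ Tconv cells it stood at 1.23, 0.842, 1.36, 0.575, 0.831 and 1.30 UMIs per 10,000 in libraries 1 to 6. Ranked by level, no neighbours had separate intervals. Library 4 (0.433 to 0.748) still lay below libraries 1 (0.821 to 1.76), 3 (0.805 to 2.15) and 6 (0.923 to 1.77). Among CD8+ T cells the Tnf levels were 1.07, 0.381, 1.02, 0.777, 0.849 and 0.713, where only library 2 was separated from its neighbour by level. Libraries 1 and 3, low in Ifng, were the highest for Tnf in CD8+ T cells. The balance of the cytokines therefore differed between libraries: over all cells there were 2.15 Ifng UMIs per Tnf UMI in library 1 (95% interval 1.90 to 2.44), 0.779 in library 2 (0.599 to 1.01) and 2.45 in library 3 (2.11 to 2.85). The same ratio was 7.86 (7.05 to 8.78), 7.99 (7.20 to 8.88) and 6.31 (5.56 to 7.19) in libraries 4, 5 and 6, with no overlap between these and the first group.

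Tbx21 had the same low point as Ifng. In CD4+ Tconv cells it stood at 0.380, 0.0561, 0.226, 0.596, 0.471 and 0.665 UMIs per 10,000 in libraries 1 to 6, the value in library 2 resting on 1 UMI. The CD8+ T cell levels were 0.434, 0.0992, 0.322, 0.857, 0.547 and 0.596. Library 4 was highest and library 2 lowest among CD8+ T cells, each separated from its neighbour, and the 4 others were not separated in sequence.

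Eomes was higher in CD8+ T cells than in CD4+ Tconv cells of every library. Among CD8+ T cells it stood at 0.387, 0.252, 0.511, 0.524, 0.398 and 0.330 UMIs per 10,000 in libraries 1 to 6. Ranked by level, no neighbours were separated. Library 4 (0.440 to 0.620) still lay above libraries 2 (0.173 to 0.353) and 6 (0.253 to 0.423). In CD4+ Tconv cells Eomes stood at 0.127, 0, 0.0755, 0.0209, 0.0372 and 0.266, from 17 UMIs in 12 cells. Of the 8 UMIs in CD4+ Tconv cells of library 6, 6 were in 1 cell, which held 9344 UMIs in all. The plot of levels by library sets both lineages side by side for each gene.

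**Figure D1:**
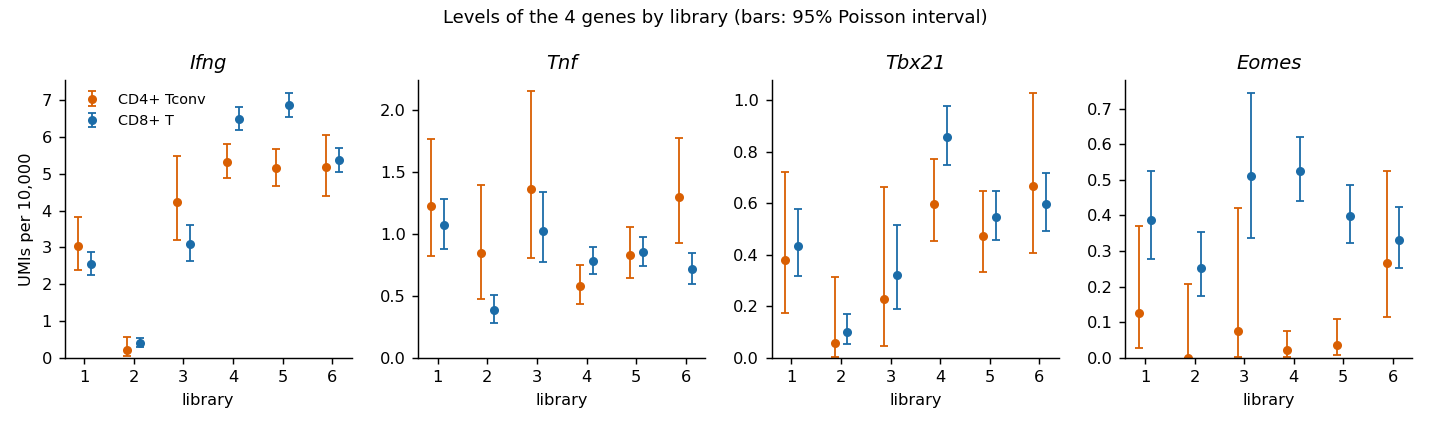
UMIs per 10,000 of Ifng, Tnf, Tbx21 and Eomes in CD4+ Tconv cells (orange) and CD8+ T cells (blue) of libraries 1 to 6, with exact 95% Poisson intervals and a separate linear axis from 0 for each gene. Ifng and Tbx21 are lowest in library 2, and Eomes lies higher in CD8+ T cells of every library.

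Since detection depends on depth, each cell was thinned to 1000 UMIs before cells were counted, which left out 295 of the CD4+ Tconv and 762 of the CD8+ T cells. Ifng was then found in 23.1% of CD4+ Tconv cells (95% Clopper-Pearson interval 20.4 to 26.0) and 23.6% of CD8+ T cells (22.3 to 25). By library, Ifng was found in 22.7, 1.27, 30, 24.1, 27.1 and 23.5% of CD4+ Tconv cells and in the CD8+ T cells at 17.2, 2.30, 20.6, 33.3, 30.5 and 30.2%. Outside library 2 the CD4+ shares all overlapped, whereas the CD8+ shares in libraries 4, 5 and 6 lay above those in library 1. As deposited, without thinning, the shares were 29.0% and 33.8%. In naive-marked cells, picked in part for lacking Ccl5 and Nkg7, Ifng was found in 0.258% (0.0312 to 0.928). Their median depth before thinning was 1264 UMIs against 2107.5 in CD4+ Tconv and 1990 in CD8+ T cells. Of these 776 cells 613 were in library 2, and naive-marked cells overlap the lineage gates, so they are not an independent background.

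Tnf was found in 6.48% of thinned CD4+ Tconv cells (4.97 to 8.28) and 6.88% of CD8+ T cells (6.09 to 7.74), against 2.06% of naive-marked cells. For Tbx21 the shares were 4.95% (3.63 to 6.56) and 5.17% (4.48 to 5.93), against 0.129%. Eomes was found in 3.94% of CD8+ T cells (3.34 to 4.61) but in 0.549% of CD4+ Tconv cells (0.179 to 1.28), against 0.644% of naive-marked cells (0.21 to 1.5). The shares in CD4+ Tconv and naive-marked cells could not be told apart at this depth. As deposited, the shares in CD4+ Tconv and CD8+ T cells were 12.6% and 11.8% for Tnf and 8.71% and 10.0% for Tbx21, and Eomes was at 7.23% in CD8+ T cells.

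The transcripts were not spread evenly over positive cells. Ifng reached 103 UMIs in 1 cell of library 5, and 139 cells with at least 10 Ifng UMIs held 27.4% of all 9372 Ifng UMIs. Of these cells 57 were in library 4, 59 in library 5 and 18 in library 6, against 3, 0 and 2 in libraries 1, 2 and 3. By gate, 80 were CD8+ T cells (57.6%, against 35.1% of all cells) and 19 were CD4+ Tconv cells (13.7% against 9.40%). A further 11 held both Cd4 and Cd8 UMIs (7.91% against 1.31%), 1 was Foxp3+ (0.719% against 0.757%) and 28 had no gating gene (20.1% against 53.3%). All 139 held a T cell marker UMI, against 93.2% of other cells, and 5 (3.60%) held an NK cell marker UMI, against 1.06%. Their median depth was 3724 UMIs against 1243 in other cells, and neither the gate shares nor the marker shares were matched by depth. A gate needs a detected UMI, and cells with no gating gene were shallower, at a median of 956.5 UMIs. Within the gates, the cells with at least 10 Ifng UMIs were 80 of 4497 CD8+ T cells and 19 of 1205 CD4+ Tconv cells. The variance of the UMI number per cell was 9.32 times its mean for Ifng, against 1.83 for Tnf, 1.35 for Tbx21 and 1.54 for Eomes. Tnf reached at most 10 UMIs in a cell, and 72.5% of Tnf-positive cells held a single UMI.

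CD8+ T cells and CD4+ Tconv cells were compared by setting the UMIs in CD8+ T cells against the number expected from the CD4+ Tconv cells of the same library. Eomes was 4.86-fold higher in CD8+ T cells (95% interval 2.93 to 8.05, log2 ratio 2.27 ± 0.37 SE), with 399 UMIs against 82.2 expected, and was higher in 6 of 6 libraries. It ranked 93 of the 10384 genes with at least 20 UMIs, of which 4.12% were at least 2-fold higher and 1.62% were so and also higher in every library. The size differed between libraries but rested on few CD4+ Tconv UMIs. The ratio was 25.1 in library 4 (6.21 to 101, 2 CD4+ UMIs) and 10.7 in library 5 (3.39 to 33.7, 3 CD4+ UMIs). The interval included 1 in library 1 (3.05, 0.945 to 9.86, 3 CD4+ UMIs) and library 3 (6.77, 0.920 to 49.8, 1 CD4+ UMI). Library 2 held 33 UMIs in CD8+ T cells and none in CD4+ Tconv cells. In library 6 the ratio was 1.24 (0.594 to 2.59). Without that library the log2 ratio over the others was 3.37 (interval of the ratio 5.34 to 20.6), and without the single CD4+ Tconv cell that held 6 Eomes UMIs it was 3.13.

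The cytokine genes and Tbx21 were close to even between the lineages. Ifng was 1.16-fold higher in CD8+ T cells (1.09 to 1.24), above 1 in 4 of 6 libraries. It was higher in libraries 4 (1.22, 1.10 to 1.35) and 5 (1.33, 1.20 to 1.49) and lower in library 3 (0.730, 0.539 to 0.989), and without library 5 the log2 ratio was 0.12 and the interval of the ratio included 1. Tnf had a ratio of 0.838 (0.716 to 0.981) and was above 1 in 2 of 6 libraries, with 0.453 in library 2, 0.55 in library 6 and 1.35 in library 4. The interval for Tnf included 1 without library 2 (log2 ratio -0.17) or library 6 (-0.08). Tbx21 had a ratio of 1.2 with an interval that included 1 (0.978 to 1.47), but without library 6 the log2 ratio was 0.39 and the interval was above 1 (1.06 to 1.62). None of these 3 genes reached a 2-fold difference, as 4.28% of all genes did in the lower direction. The median log2 ratio of all genes was -0.05, and 7.8% of genes had an interval above 1 and 15.6% an interval below 1. Tbx21 and Eomes, though related factors, thus stood in different proportion: there were 7.53 Tbx21 UMIs per Eomes UMI in CD4+ Tconv cells (4.52 to 13.3) and 1.37 in CD8+ T cells (1.21 to 1.57). By library the number ran from 2.5 to 28.5 in CD4+ Tconv cells, apart from library 2 with no Eomes UMI, and from 0.394 to 1.81 in CD8+ T cells. The CD4+ Tconv value was 4.73 without library 4 (2.69 to 8.9) and 12.0 without library 6 (6.09 to 27).

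**Figure D2:**
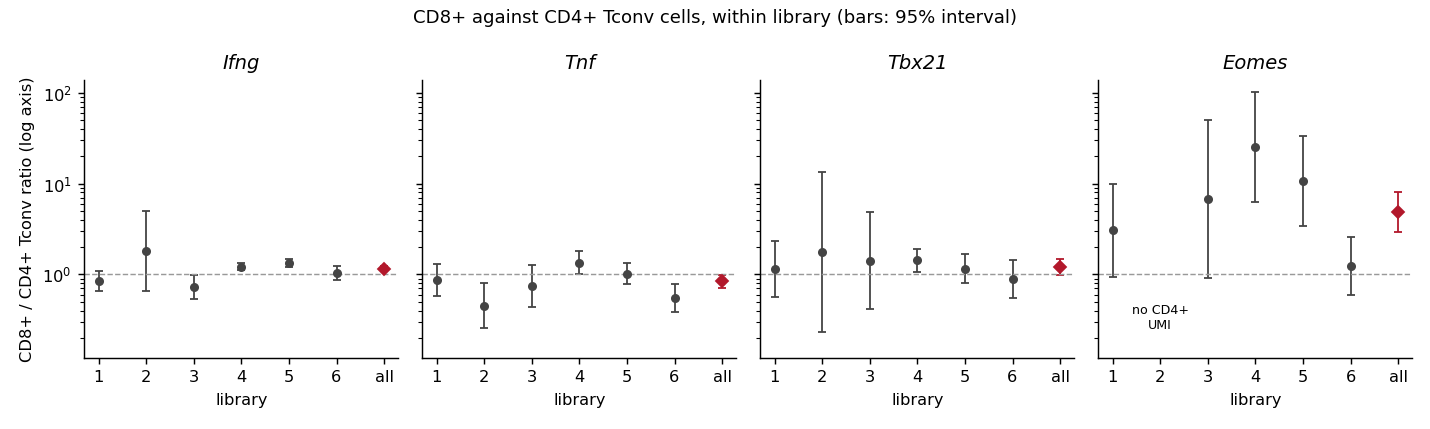
Ratio of UMIs in CD8+ T cells to those expected from CD4+ Tconv cells for each gene and library (grey) and summed over libraries (red), on a log axis with 95% intervals and a dashed line at 1. Eomes lies above 1 in each library with a CD4+ UMI, from 1.24 in library 6 to 25.1 in library 4, with intervals that include 1 in libraries 1, 3 and 6. Ifng, Tnf and Tbx21 lie near 1.

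Foxp3+ cells could be compared with CD4+ Tconv cells in libraries 1 to 3 (96 against 419 cells, with median depths of 1500.5 and 996 UMIs). In these libraries the Treg genes Ikzf2, Il2ra, Ctla4 and Lrrc32, which the gate did not use, summed to 15.6 UMIs per 10,000 in Foxp3+ cells (13.9 to 17.5) and 4.86 in CD4+ Tconv cells (4.29 to 5.48). Ifng had a ratio of 0.855 (0.600 to 1.22) from 41 UMIs, and Tnf one of 0.677 (0.384 to 1.19) from 15 UMIs, so neither was distinguishable from 1. Of the 4160 genes that could be compared, 8.51% had an interval above 1 and 4.3% one below 1, and 4.21% were at least 2-fold higher (2.96% in every library) and 5.62% at least 2-fold lower (4.21% in every library). The libraries went different ways for Ifng, with 17 UMIs against 32.6 expected in library 1, 9 against 1.19 in library 2 and 15 against 14.2 in library 3, and all 15 of the last were in 1 cell. Without the deepest 2% of cells of each library the log2 ratio was -0.89 and the interval of the ratio lay below 1 (0.336 to 0.846), and without library 1 the log2 ratio was 0.62 (0.97 to 2.5). Foxp3+ cells held 4 Tbx21 UMIs and no Eomes UMI, which allows up to 0.153 Eomes UMIs per 10,000, so a level such as that of CD4+ Tconv cells (0.0651) was not detectable at this depth.

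The genes that work with these 4 were examined as a list of 59, of which 55 could be compared between CD8+ T and CD4+ Tconv cells. Over the list the interval was above 1 for 15 genes and below 1 for 22, against 7.8% and 15.6% of all genes, and the median log2 ratio was -0.08, against -0.05. Among the receptors that induce type 1 genes, 2 of 7 were higher and 2 lower in CD8+ T cells. Il12rb2, the inducible chain of the IL-12 receptor, was higher at 1.37 (1.07 to 1.75) and in 6 of 6 libraries, and Il18rap, a chain of the IL-18 receptor, at 1.44 (1.20 to 1.73). Il12rb1, the shared IL-12 receptor chain, was lower at 0.646 (0.477 to 0.874), and Il21r, the IL-21 receptor, at 0.705 (0.622 to 0.799).

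Among transcription factors 1 of 11 was higher, a share near the 7.8% of all genes, and 6 were lower, against 15.6% of all genes. Runx3, which establishes the CD8 lineage and cooperates with T-bet at Ifng, was higher at 1.28 (1.16 to 1.41), while its relative Runx1 was lower at 0.555 (0.477 to 0.646). Batf, an activation-induced AP-1 factor, was lower at 0.679 and Nfatc1, which carries calcium signals to cytokine genes, at 0.705, as was the repressor gene Zeb2 at 0.721. Stat4, the IL-12 signal transducer, had an interval that included 1 (1.15, 0.997 to 1.32). All 5 comparable genes of the opposing programs were at least 2-fold lower in CD8+ T cells, against 4.28% of all genes, including the type 2 cytokine genes Il5 (0.0395), Il13 (0.0517) and Il4 (0.132), and Il10 (0.264). Il10 rested on 27 UMIs in CD8+ T and 35 in CD4+ Tconv cells and was higher in 3 of 6 libraries.

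Of the 14 effector partners 10 were higher and 3 lower, against 7.8% and 15.6% of all genes, with a median log2 ratio of 2.20. The shares of all genes include genes with as few as 20 UMIs, whose wide intervals exclude 1 less easily than those of abundant partners. The chemokine gene Ccl4 was 16.8-fold higher (13.9 to 20.2), the granzyme gene Gzma 12.7-fold (11.6 to 13.9), Ccl3 6.99-fold (5.18 to 9.45) and Ccl5 6.67-fold (6.44 to 6.90). The 3 lower genes were Lta (0.355), Il2 (0.221) and Csf2 (0.211), all encoding cytokines. Lta was lower in 6 of 6 libraries, whereas Csf2 was higher in 2 of 6. Il2 was higher in 1 of 6 and rested on 35 UMIs in CD8+ T and 33 in CD4+ Tconv cells. Lta and Ltb flank Tnf on chromosome 17, Lta 1158 bases beyond it and Ltb 3061 bases away, and they did not share a ratio: Ltb stood at 0.997 (0.931 to 1.07), Tnf at 0.838 and Lta at 0.355. Of the homing receptors Cxcr6 was lower at 0.829. Among the receptors for the cytokines Ifngr2, the signaling chain of the interferon-γ receptor, was lower at 0.334 (0.241 to 0.463) in 6 of 6 libraries, whereas its partner Ifngr1 was at 0.972 (0.915 to 1.03).

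Of 6 comparable interferon-γ targets only Cd274, which encodes PD-L1, had an interval that excluded 1, at 0.719. Factors that destroy or silence cytokine mRNA were lower for 3 of 5 genes: Zc3h12a (0.692), Zfp36l1 (0.701) and Zfp36 (0.760), with Zfp36 and Zfp36l1 lower in 6 of 6 libraries. Over all genes 15.6% had an interval below 1. Zfp36l2 was higher at 1.09.

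Next, the number of cells that held UMIs of both genes of a pair was compared with the number expected if detection were independent within library and depth decile. Ifng and Tnf were found together in 556 cells against 427.5 expected, a ratio of 1.30 (1.19 to 1.41), above 1 in 6 of 6 libraries. Ifng and Tbx21 were found together in 429 cells against 345.8, a ratio of 1.24 (1.13 to 1.36), also in 6 of 6 libraries. Both pairs were above expectation in CD8+ T cells (1.21, 1.07 to 1.36, and 1.14, with an interval from just above 1 to 1.28) and in CD4+ Tconv cells (1.38, 1.07 to 1.74, and 1.45, 1.10 to 1.88).

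Eomes kept no such company. Ifng and Eomes were found together in 198 cells against 183.9 (1.08, 0.932 to 1.24), and Tnf and Eomes in 64 against 67.9 (0.943, 0.726 to 1.20). Tbx21 and Eomes were found together in 50 cells against 59.4 (0.842, 0.625 to 1.11), and in CD8+ T cells in 39 against 51.4 (0.759, 0.540 to 1.04). The intervals of these 3 pairs included 1, as did that of Tnf and Tbx21 (1.16, 0.979 to 1.36), which lay above 1 without library 6 (1.03 to 1.47).

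**Figure D3:**
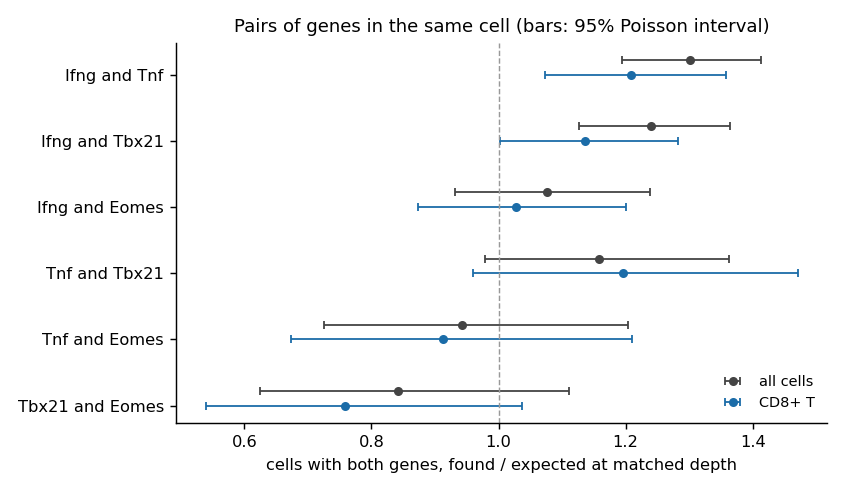
Number of cells with UMIs of both genes over the number expected at matched library and depth, for all cells (grey) and CD8+ T cells (blue), with 95% Poisson intervals and a dashed line at 1. Ifng with Tnf and Ifng with Tbx21 lie above 1, at 1.30 and 1.24 over all cells, and Tbx21 with Eomes lies at 0.842 with an interval that includes 1.

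CD8+ T cells were then divided by their T-box factors: 411 held Tbx21 UMIs only, 286 Eomes only, 39 both and 3761 neither. Against cells with neither, of the same library and depth quartile, cells with Tbx21 only held 1.34-fold more Ifng (1.25 to 1.45, higher in 4 of 6 libraries) and 1.4-fold more Tnf (1.15 to 1.71, 5 of 6). Cells with Eomes only held less Ifng, at 0.782 (0.701 to 0.872, lower in 4 of 6), and their Tnf was at 0.905 (0.689 to 1.19). Without library 5 the log2 ratio of Ifng in cells with Eomes only was -0.13 and the interval of the ratio included 1 (0.803 to 1.05), and without library 4 that of cells with Tbx21 only was 0.18 (1.03 to 1.25).

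Set directly against cells with Tbx21 only, cells with Eomes only held 0.575 times the Ifng (0.509 to 0.650, lower in 4 of 6 libraries) and 0.633 times the Tnf (0.463 to 0.865, lower in 6 of 6). In the other direction, Gzmk, a granzyme gene of memory-type CD8+ T cells, was 1.76-fold higher in cells with Eomes only (1.5 to 2.06), and Klrg1, an inhibitory lectin receptor gene, 3.10-fold higher (2.07 to 4.64), both in 6 of 6 libraries. Cxcr6, a tissue residency receptor gene, was lower at 0.7 (0.567 to 0.865), in 5 of 6 libraries. Against cells with neither, Xcl1 was higher in both classes, at 1.41 with Tbx21 only (5 of 6 libraries) and 1.28 with Eomes only (2 of 6). Gzmb was nearly even with Tbx21 only, at 1.05 (0.993 to 1.11).

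In CD4+ Tconv cells 104 cells held Tbx21 only and 11 Eomes only. Those with Tbx21 only held 2.25-fold more Ifng than cells with neither (1.97 to 2.57), higher in 3 of the 3 libraries with enough cells, and without library 5 the log2 ratio was 0.72. Tnf in the same cells was at 1.23 (0.820 to 1.85). Il12rb2 was also higher in these CD4+ Tconv cells, at 2.06 (1.24 to 3.42), as was Nkg7, a cytotoxic granule gene, at 1.51 (1.33 to 1.71). In CD8+ T cells with Tbx21 only Il12rb2 was lower at 0.685 (0.506 to 0.928), and Nkg7 was at 1.17 (1.12 to 1.22).

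**Figure D4:**
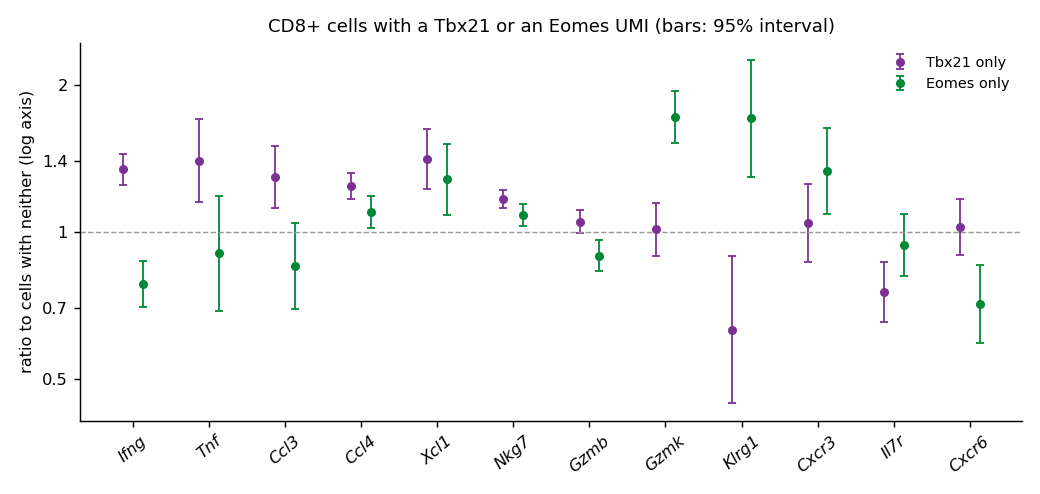
Ratio to cells with neither factor, at matched library and depth quartile, for 12 genes in CD8+ T cells with Tbx21 UMIs only (purple) and Eomes UMIs only (green), on a log axis with 95% intervals and a dashed line at 1. Ifng, Tnf and Ccl3 lie higher with Tbx21, and Gzmk and Klrg1 lie higher with Eomes.

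Finally, the levels were compared between cells with and without a UMI of 7 cell state genes, again at matched library and depth quartile. In CD8+ T cells with Gzmb, the granzyme gene of cytotoxic effectors, Ifng was higher at 1.46 (1.33 to 1.59) and Tbx21 at 1.51 (1.17 to 1.94, including 1 without library 4), whereas Tnf was lower at 0.654 (0.536 to 0.798), in 5 of 5 libraries with enough cells. Among those with Pdcd1, which encodes the checkpoint receptor PD-1, Tbx21 was higher at 1.52 (1.26 to 1.82), Tnf was lower at 0.773 (0.646 to 0.924, 5 of 5 libraries) and Ifng was even (0.943 to 1.07). These ratios count UMIs. Counted as cells that held both genes, at matched library and depth decile, CD8+ T cells with Gzmb held Ifng at 1.05 times expectation (0.984 to 1.12), Tnf at 0.952 (0.843 to 1.07) and Tbx21 at 1.06 (0.942 to 1.18). Pdcd1, Gzmb, Mki67, Tcf7 and Ccr8 were counted this way with each of the 4 genes in both lineages, and only Tbx21 with Pdcd1 in CD8+ T cells had an interval that excluded 1 (1.26, 1.07 to 1.46).

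Both were higher in CD8+ T cells that held Mki67 or Cd69. With Mki67, a gene of dividing cells, Ifng was at 1.34 (1.25 to 1.44) and Tnf at 1.44 (1.18 to 1.76). With Cd69, an early activation marker, Ifng was at 1.35 (1.27 to 1.44) and Tnf at 1.47 (1.25 to 1.72). With Nr4a1, a gene induced by receptor signaling, Ifng was at 1.31 (1.24 to 1.4) and Tnf at 0.977 (0.837 to 1.14). With Tcf7, the factor of naive and stem-like cells, Ifng was lower at 0.765 (0.698 to 0.839) and Tnf was at 1.21 (0.995 to 1.46).

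In CD4+ Tconv cells Ifng was higher with Pdcd1 (1.47, 1.29 to 1.67, 4 of 4 libraries), with Gzmb (1.68, 1.49 to 1.90) and with Cd69 (2.44, 2.15 to 2.78, but in only 3 of 6 libraries), and lower with Tcf7 (0.517, 0.410 to 0.650). Without library 5 the log2 ratio with Gzmb was 0.28, and without library 4 that with Cd69 was 0.93. With Ccr8, a receptor of Treg cells and of activated Tconv cells, Ifng was at 0.477 (0.392 to 0.581) and Tnf at 0.633 (0.396 to 1.01), both lower in 4 of 4 libraries, although the cells with Ccr8 that held Ifng numbered 40 against 42.3 expected (0.945, 0.675 to 1.29). Eomes was not found in the 117 CD4+ Tconv cells with Ccr8, but only 12 CD4+ Tconv cells held it at all. At matched library and depth 2.40 such cells were expected (ratio up to 1.54), or 3.73 UMIs (ratio up to 0.988). In the 118 CD8+ T cells with Ccr8 Eomes was lower at 0.5 (0.266 to 0.939), in 4 of 4 libraries, with an interval that included 1 without library 4 or 5. Ifng met the type 2 genes less often than independent detection would give among CD4+ Tconv cells, with 19 cells holding Ifng and Il4 against 40.1 expected (0.474, 0.286 to 0.741), 15 holding Ifng and Il13 against 25.7 (0.583, 0.326 to 0.962) and 102 holding Ifng and Gata3 against 134.6 (0.758, 0.618 to 0.920).

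**Figure D5:**
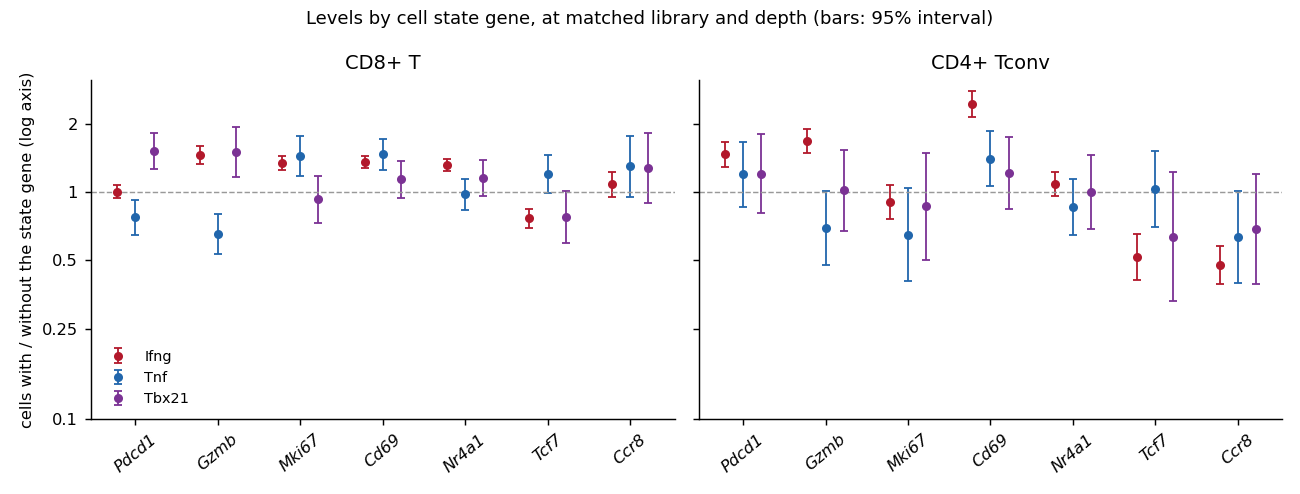
Ratio of Ifng (red), Tnf (blue) and Tbx21 (purple) in cells with a UMI of each state gene to cells without, at matched library and depth quartile, in CD8+ T cells (left) and CD4+ Tconv cells (right), on a log axis with 95% intervals and a dashed line at 1. With Gzmb in CD8+ T cells, Ifng lies at 1.46 and Tnf at 0.654, and in CD4+ Tconv cells with Ccr8, Ifng lies at 0.477.

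The genes most like each member were ranked by Pearson's r of log2 levels over 18 sums of cells (6 libraries by CD4+ Tconv, CD8+ T and remaining cells), among 7146 genes. These points share libraries and depth, and r is a description. Ifng was most like S100a6 (r = 0.98), Aldoa (0.98) and Fasl (0.97), and Tbx21 most like Fasl (0.95), Ctsd (0.94) and Pdcd1 (0.94). Tnf was most like Lmna (0.85), Chmp4b (0.84) and Cggbp1 (0.81), and Eomes most like Ccl4 (0.85) and the gating genes Cd8a (0.83) and Cd8b1 (0.83). Between members r was 0.92 for Ifng and Tbx21 and 0.40 for Ifng and Tnf. Library 2 carried part of this: over the 15 sums without it, r was 0.62 for Ifng and Tbx21 and -0.65 for Ifng and Tnf.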

How the data were processed

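TCRβ+ T cells were sorted from tumors and profiled by the study in droplets with 5′ chemistry. The authors made the deposited UMI counts, which are whole numbers without normalization, with Cell Ranger, merged the libraries and filtered cells in Seurat. The methods name mm10 and the submitters' processing notes mm9, and the annotation version is not given in the sources used here. All 12818 cells lay within the stated limits of 200 to 2500 genes and under 5% mitochondrial transcripts. The 12818 cell columns could not be mapped to a labelled sample, so PBS and DTx were not compared and the planned count models were not run. No doublet caller was run, cells with both Cd4 and Cd8 UMIs stayed out of the gates, and an alternative left out the deepest 2% of cells per library.

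Levels are UMIs per 10,000 UMIs with exact Poisson 95% intervals, and shares carry Clopper-Pearson intervals. Ratios set observed against expected UMIs within libraries (and depth quartiles where stated), carry the Poisson error of both numbers and were computed for all genes with at least 20 UMIs, with 0.5 added to observed and expected for log2 values. Libraries with under 10 cells of either kind were left out of direction counts. Likeness used log2(UMIs per 10,000 + 0.1) for genes with at least 200 UMIs. The pathway genes named were up to 4 per role with the largest change among those whose interval excluded 1, plus some named for their role. The members and gene lists were chosen with earlier results of these data known. Results for some listed genes are not reported here. The ratio method was tested on simulated sums, drawn as Poisson counts from the same gene shares in every library. That test cannot show how the intervals hold where UMIs cluster in cells or libraries differ. Gene positions came from GENCODE M21 and promoter sequences from RefSeq. Python 3.11.15, NumPy 2.4.6, SciPy 1.17.1 and pandas 2.3.3 were used.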

Additional observations from a re-analysis of the deposited data

How the results depend on the processing

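No paired analysis was possible because the libraries could not be linked to the numbered PBS and DTx samples, and the count models, their replicate block and the leaving out of replicates were not run for the same reason. No ratio that was put to alternatives and whose interval excluded 1 changed sign. These ratios were those of the 4 genes between lineages, in pairs and by cell state gene, and of Ifng and Tnf by T-box factor. The pathway genes, other genes by T-box factor and pairs with other genes were not put to these alternatives. Each principal value was set against each alternative other than leaving out a library, and of these pairs 88 stayed and 36 moved. Ratios and shares stayed if they fell within the interval of the main value, and counts if they lay within a set fold of the main count. Without a filter on low counts, 2024 genes were at least 2-fold higher and 1536 lower in CD8+ T cells (428 and 444 with it), and 1442 and 1763 in Foxp3+ cells (175 and 234 with it). With at least 2 UMIs of the gating gene these were 917 and 676 genes for CD8+ T cells, and the log2 ratio of Ifng was 0.041. Without the deepest 2% of cells, the log2 ratio of Eomes in CD8+ T cells was 3.13 and that of Ifng in Foxp3+ cells -0.89; leaving out only the CD4+ Tconv cell with the most Eomes UMIs, an alternative chosen after seeing the data, also gave 3.13 for Eomes. Shares followed the thinning depth. At 500 UMIs they were 13.2% and 13.8% for Ifng in CD4+ Tconv and CD8+ T cells, 4.27% and 3.96% for Tnf, 2.39% and 2.45% for Tbx21, and 0.0855% and 1.8% for Eomes. At 1500 UMIs they were 31.0% and 34.0% for Ifng, 9.17% and 9.37% for Tnf, 7.03% and 8.3% for Tbx21, and 5.45% for Eomes in CD8+ T cells. As deposited they were 29.0% and 33.8%, 12.6% and 11.8%, 8.71% and 10.0%, and 7.23%. Without naive-marked cells, also chosen after seeing the data, Ifng was found in 25.5% of CD8+ T cells. Matching by library only, the log2 ratio of cells with both genes was 0.53 for Ifng and Tnf, 0.46 for Ifng and Tbx21 and 0.31 for Ifng and Eomes. Leaving out each library in turn gave log2 ratios of 0.12 to 0.26 for Ifng and 1.77 to 3.37 for Eomes in CD8+ T cells, and of -0.54 to 0.62 for Ifng in Foxp3+ cells. It gave shares of 21.0% to 28.5% for Ifng and 4.29% to 6.28% for Tbx21 in CD8+ T cells. Against cells with neither factor, the log2 ratio of Ifng ran from 0.18 to 0.53 with Tbx21 only and from -0.50 to -0.13 with Eomes only in CD8+ T cells, and from 0.72 to 1.47 with Tbx21 only in CD4+ Tconv cells. Leaving out libraries for Tbx21 UMIs per Eomes UMI, chosen after seeing the data, gave 4.73 to 12.0 in CD4+ Tconv cells and 1.24 to 1.46 in CD8+ T cells. The cause of these movements was not tested. Depth limits Eomes in CD4+ Tconv cells, which rests on 17 UMIs, and every member in Foxp3+ cells.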

Other observations

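Ifngas1 (ENSMUSG00000112230.1), a long noncoding RNA gene on chromosome 10 at 118502035 to 118556525 on the minus strand, lies 56143 bases from the end of Ifng and was looked at after its values were seen. It had 67 UMIs in all cells, of which 55 were in CD8+ T cells, with 7, 8, 3, 13, 11 and 13 UMIs in libraries 1 to 6. No UMI was found in CD4+ Tconv cells, which allows up to 0.0115 UMIs per 10,000 against 0.0557 in CD8+ T cells. The level in CD8+ T cells was 4.85 times that limit, which stands for 3 UMIs over the CD4+ Tconv cells. This number leaves out the counting error in CD8+ T cells, sums all libraries without matching and is not a lower bound. The exact Poisson interval allowed more in CD4+ Tconv cells, up to 0.0141 per 10,000. In CD8+ T cells it ran from 0.0419 to 0.0725, so the intervals did not overlap. Library 2, lowest for Ifng, held Ifngas1 at 0.061 per 10,000 among CD8+ T cells (0.0263 to 0.12). Ifng and Ifngas1 were found together in 18 CD8+ T cells, against 20.8 expected at matched library and depth.

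The 12 CD4+ Tconv cells with an Eomes UMI, also singled out after their values were seen, held UMIs of genes that were higher in CD8+ T cells, concentrated in a few cells. Xcl1 had 35 UMIs in 3 of them, 30 in 1 cell, and Ccl4 had 38 UMIs in 4, with 24 in that same cell of library 1. Ccl5 had 258 UMIs in 8 of the cells and Gzmk had 13 in 4, of which 10 were in 1 cell. Ifng was found in 7 of the 12, with at most 2 UMIs in a cell.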
